A study of Drosophila melanogaster with 18 samples.

Results

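Lcp65Ag2, a gene for a protein of the larval cuticle, is the only gene of the Cpr, Lcp, Ccp84 and Twdl families that the annotation of the array names. Members were sought by gene symbol, as probe sets whose symbol begins with Cpr and a digit, or with Lcp, Ccp84 or Twdl. This gave 1 probe set of the 2392 that carry a symbol, among 16322 probe sets on the array. RefSeq (Release 6 plus ISO1 MT, used for names only) lists 120 genes with such symbols, so the others of these families are not analysed here and the values below do not describe the families.

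The cuticle is the outer coat of an insect. The epidermis lays it down as layers of chitin fibres bound by cuticle proteins, and it is shed and renewed at each moult under the control of the steroid hormone ecdysone. The Cpr and Lcp proteins carry a chitin-binding stretch, Ccp84 genes form a cluster of the same kind, and Twdl (Tweedle) proteins are a separate family. Many of these genes are active for only a short part of larval or pupal life. Lcp65Ag2 lies on chromosome arm 3L in a tandem array of such genes. Its neighbours in the RefSeq order are Cpr65Au and Lcp65Ag1, and 18 genes in RefSeq have symbols that begin with Lcp65A or Cpr65A, of which Lcp65Ag2 alone is named on the array. Tandem copies of this kind, Lcp65Ag1 and Lcp65Ag3 above all, are close in sequence, so RNA of the copies may bind the same probes and the signal may not be that of Lcp65Ag2 alone.

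RNA was measured on 18 arrays of whole Drosophila melanogaster larvae of the third instar, the last larval stage, with 2 arrays in each of 9 groups. Tub-3L larvae of generations G1, G2, G4 and G5 carry a DNMT3L transgene behind GAL4 binding sites (UAS) together with the Tubulin-GAL4 driver, which switches the transgene on in nearly every tissue, and each generation came from crosses among the progeny of the one before. DNMT3L is a mammalian regulator of DNA methylation that flies lack. Tub-3L G5P are G5 larvae with melanotic tumors, which are black masses in the body cavity. The controls without the driver hold the silent transgene (UAS-3L, in G1 and in G5), or no transgene at all (w1118, the strain used for the injections). No group carries the driver without the transgene, so the driver itself and the DNMT3L it switches on cannot be told apart. UAS-3L* G20* larvae descend from Tub-3L flies after the driver had been crossed out by way of balancer flies, although one label of this group names it as Tub-3L and another as G5, so its generation remains uncertain. The RNA of an array came from a pool of larvae of about the same stage. The labels name the 2 pools as biological replicates without naming their crosses, so p-values measure the spread between pools. DNMT3L itself has no named probe set, and the labels could not be checked against it.

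The arrays were alike in scale, with medians of 6.17 to 6.39 and lower quartiles of 4.16 to 4.57 on the log2 scale. All 6 named genes of the salivary glue, which mark larvae of the third instar, had a mean of the 2 arrays of 7.21 or more in each group without the driver. Summed over these 6 genes, the log2 signal was 6.46 and 6.49 on the arrays of Tub-3L G5P, and 14.3 and 14.4 on those of UAS-3L G1. The 13 named markers of adult organs (flight muscle, male accessory gland, ovarian follicle and eye) summed to 7.52 on both arrays of UAS-3L G1 but to 13.2 on both arrays of Tub-3L G4, to 13.8 and 13.9 on those of Tub-3L G5 and to 12.6 and 12.7 on those of Tub-3L G5P. These 3 groups, labelled as larvae, thus hold signal of adult organs, and 1 array of w1118 stood at 9.22 beside 7.50 on the other. Fewer cells that make a transcript and less RNA per cell cannot be told apart in RNA of whole larvae.

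Lcp65Ag2 was lower in every group with the driver than in every group without it. In UAS-3L G1 its log2 signal was 7.23 and 7.35 on the 2 arrays. In UAS-3L G5 it was 7.98 and 7.93. In UAS-3L* G20*, from which the driver had been removed, it was 7.94 and 8.06. These values were close within each group. The means of UAS-3L G5 and UAS-3L* G20* lay above that of UAS-3L G1 by 0.67 and 0.72, under 2-fold.

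In w1118 the gene reached its highest level, 8.47 and 8.58, where 15.9% to 17.0% of the probe sets on the array were brighter. In Tub-3L G1, the first generation with the driver, it was 4.02 and 4.15. Both arrays of Tub-3L G1 fell under the lower quartile of their array, with 77.7% to 79.5% of probe sets brighter, so the gene was near the dim end of what the arrays register.

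In Tub-3L G2 the signal was back at 6.85 and 6.55. In Tub-3L G4 it was 5.90 and 5.93. In Tub-3L G5 it was 5.31 and 4.79, the widest gap between the arrays of a group. The mean of Lcp65Ag2 was thus lower in G4 than in G2 (log2 difference −0.79) and lower in G5 than in G4 (−0.86), each under 2-fold.

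In Tub-3L G5P, the larvae with tumors, it was 3.74 and 3.73, again under the lower quartile of the arrays. The lowest of the 8 arrays without the driver stood at 7.23 and the highest of the 10 arrays with it at 6.85, a gap of 0.38 that lies within the widest gap between duplicates (0.52). Of all probe sets, 1.26% (205) had all arrays with the driver below all arrays without it. The means of the 9 groups spanned 4.80 on the log2 scale, a range that 2.46% of all probe sets exceeded.

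**Figure D1:**
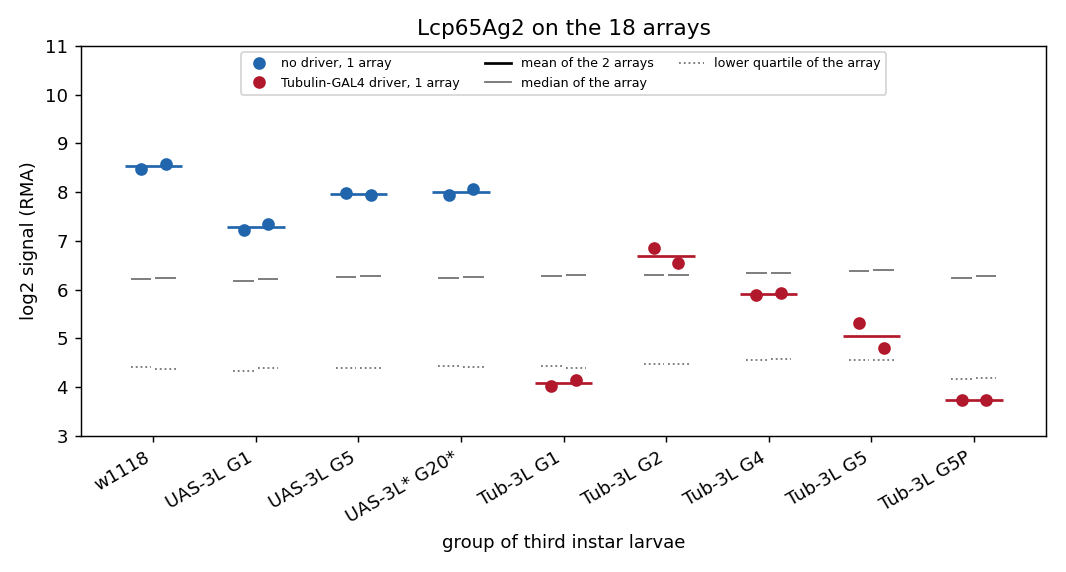
Log2 signal (RMA) of Lcp65Ag2 on each of the 18 arrays (points) in the 9 groups of larvae, with the mean of the 2 arrays as a line and the median and lower quartile of each array as grey marks. Arrays without the driver lie at 7.23 or above, those with it at 6.85 or below, and Tub-3L G1 and Tub-3L G5P fall under the lower quartile of their arrays.

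The order of the groups, from the highest mean to the lowest, was w1118 (8.53 ± 0.0736, SD, n = 2 arrays), UAS-3L* G20* (8.0 ± 0.0841), UAS-3L G5 (7.95 ± 0.0318), UAS-3L G1 (7.29 ± 0.0829), Tub-3L G2 (6.70 ± 0.214), Tub-3L G4 (5.91 ± 0.0203), Tub-3L G5 (5.05 ± 0.364), Tub-3L G1 (4.08 ± 0.0942) and Tub-3L G5P (3.73 ± 0.00718). Apart from the first generation, the groups with the driver therefore followed the order of the generations, and tumor-bearing larvae came last. Neighbours in this order were compared after it had been seen. UAS-3L* G20* and UAS-3L G5 differed by 0.05 (95% interval −0.27 to 0.37, limma, adjusted p = 0.994), less than the gap between the arrays of UAS-3L* G20*. Tub-3L G5P and Tub-3L G1 differed by −0.35 (interval −0.67 to −0.03, adjusted p = 0.0543), where both groups are dim. The other neighbours differed with an adjusted p of 0.0158 or less, by 0.52 to 0.97 on the log2 scale, which is under 2-fold in each case. Called at 2-fold or more were 3.81% of all probe sets as higher in w1118 than in UAS-3L* G20*, 3.57% as lower in Tub-3L G4 than in Tub-3L G2, 4.33% as lower in Tub-3L G5 than in Tub-3L G4, 11.9% as higher in Tub-3L G5 than in Tub-3L G1, 15.3% as lower in Tub-3L G5P than in Tub-3L G1, and 0% of UAS-3L* G20* against UAS-3L G5. Single arrays decide some of these calls: Tub-3L G5 lay 1.22 above Tub-3L G1 without Tub-3L G5 replicate 2 and 1.03 above it without Tub-3L G1 replicate 2, and −1.12 from Tub-3L G4 without Tub-3L G5 replicate 1, each past 2-fold.

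A single linear model was fitted with limma to all probe sets and arrays, where a call needs both 2-fold or more and an adjusted p below 0.05. In Tub-3L G1 against UAS-3L G1, the comparison that asks what the first generation with the driver does, Lcp65Ag2 was 9.21-fold lower (log2 difference −3.20, SE 0.15, 95% interval −3.53 to −2.88, n = 2 arrays per group, adjusted p = 6.62e-08). Only 1.72% of all probe sets were called lower in this comparison, in which Lcp65Ag2 ranked 10 of 16322 from the most negative difference (2.94% were called in either direction). Since the gene was at the dim end in Tub-3L G1, the size of this fold is uncertain. The difference kept its call with UAS-3L G5 as the control, at −3.87.

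From the first to the second generation the difference was the reverse. In Tub-3L G2 against Tub-3L G1 the gene was 6.13-fold higher (log2 difference 2.61, SE 0.15, adjusted p = 2.40e-07), in a comparison that called 2.71% of probe sets higher, and it ranked 27 from the most positive difference. Against UAS-3L G1, Tub-3L G2 was 1.50-fold lower (log2 difference −0.59, adjusted p = 0.0103), short of the 2-fold threshold, in a comparison that called 2.24% of probe sets lower. Against UAS-3L G5 the same arrays were lower by −1.26 on the log2 scale (adjusted p = 6.45e-05), which passes it, so the call in the second generation turns on which of the driverless groups serves as the control.

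The level of Lcp65Ag2 fell again in the later generations. It was 2.59-fold lower than UAS-3L G1 in Tub-3L G4 (log2 difference −1.37, adjusted p = 1.30e-05), where 4.85% of all probe sets were called lower. In Tub-3L G5 it was 4.72-fold lower (log2 difference −2.24, adjusted p = 7.79e-08), where 10.2% were called lower. In Tub-3L G5P it was 11.8-fold lower (log2 difference −3.56, adjusted p = 6.70e-10), where 13.7% were called lower. A call in these groups is common among all probe sets, and in Tub-3L G5P the gene ranked 302 from the most negative difference. The SE is 0.15 in each of these comparisons, which share the arrays of UAS-3L G1.

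Against larvae of the same generation without the driver the difference was wider. In Tub-3L G5 against UAS-3L G5, Lcp65Ag2 was 7.50-fold lower (log2 difference −2.91, SE 0.15, adjusted p = 7.37e-09), where 10.6% of probe sets were called lower. The difference between Tub-3L and UAS-3L in G5, minus that in G1, was 0.30 on the log2 scale (95% interval −0.16 to 0.75, limma, adjusted p = 0.27). This test was chosen after the values were seen, and in it 46.2% of all probe sets had an adjusted p under 0.05. Without Tub-3L G5 replicate 2 the value was 0.56, so its size depends on 1 array. Within G5, larvae with tumors had 2.49-fold less signal than those without (log2 difference −1.32, interval −1.64 to −1.0, adjusted p = 1.93e-05), in a comparison that called 10.5% of probe sets lower.

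Among the groups without the driver, w1118 was 2.36-fold higher than UAS-3L G1 (log2 difference 1.24, SE 0.15, adjusted p = 9.61e-05), with 2.36% of probe sets called higher. With UAS-3L G5 as the control this difference was 0.57 and was not called. UAS-3L G5 exceeded UAS-3L G1 by 0.67 (adjusted p = 0.0113) and UAS-3L* G20* exceeded it by 0.72 (adjusted p = 0.00784), both under 2-fold, in comparisons that called 1% and 0.882% of probe sets higher. UAS-3L G1 was thus the lowest of the groups without the driver, so the folds by which the driver groups lay below it are smaller than those against the other 3.

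**Figure D2:**
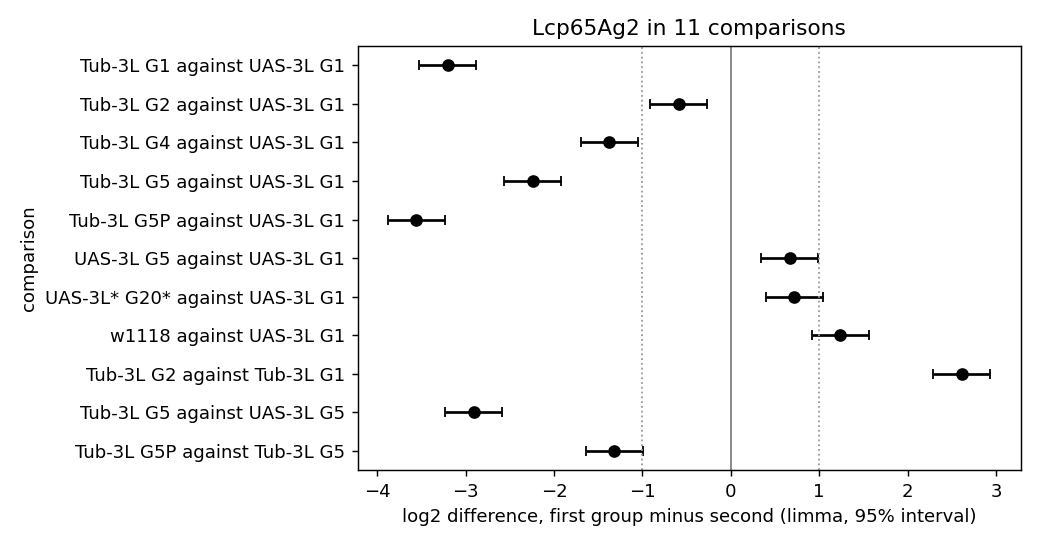
Difference in the log2 signal of Lcp65Ag2 between the first and the second group of each of 11 comparisons, with the 95% interval of the limma fit (2 arrays per group). The dotted lines mark 2-fold. The deepest differences are those of Tub-3L G5P (−3.56) and Tub-3L G1 (−3.20) against UAS-3L G1, while Tub-3L G2 lies at −0.59.

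The glue genes of the salivary gland, which are switched on late in the larval stage, were not called in Tub-3L G1. Of 6 named genes of 16 listed as markers of the third instar, 0 were called in Tub-3L G1 against UAS-3L G1 by limma (2.94% of all probe sets were), 0 of them had an unadjusted p under 0.05, and their summed log2 signal was 14.3 on both arrays against 14.3 and 14.4. Sgs5, a glue protein, had a mean of 12.6 in both groups while Lcp65Ag2 fell 9.21-fold. From Tub-3L G1 to Tub-3L G2, where Lcp65Ag2 rose 6.13-fold, the 6 had a median log2 difference of −0.55, beside −0.007 for all probe sets. The 6 differences ran from −0.31 for Sgs7 to −1.83 for Sgs1. In Tub-3L G5 all 6 were called lower (10.2% of all probe sets were), with a median log2 difference of −2.63 beside −2.24 for Lcp65Ag2 and 0.02 for all probe sets. In Tub-3L G5P all 6 were called lower as well (13.7% of all probe sets were). Their means there ran from 2.87 for Sgs5 to 4.46 for Sgs7, beside lower quartiles of 4.16 and 4.19 on the arrays, so these genes, like Lcp65Ag2 at 3.73, were near the dim end and the sizes of their differences are not compared.

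The signal of adult organs was high in Tub-3L G4, G5 and G5P, where Lcp65Ag2 was low, but not in Tub-3L G1, where it was low too. From G5 to G5P the summed adult signal fell while Lcp65Ag2 fell further. Of 13 named markers of 22, 0 were called in Tub-3L G1 or in Tub-3L G2 by limma, where 2.94% and 5.62% of all probe sets were called. At an unadjusted p under 0.05 were 1 in Tub-3L G1 and 2 in Tub-3L G2. The summed log2 signal of the 13 was 7.14 to 7.45 in Tub-3L G1. In Tub-3L G4 and Tub-3L G5 all 13 were called higher, with medians of 5.26 and 6.01, and in Tub-3L G5P 12 were, with a median of 4.05, where 7.54%, 13% and 15.2% of all probe sets were called higher. From G5 to G5P, 8 of the 13 were called lower (10.5% of all probe sets were) and 5 were not called. Their median was −1.39, beside 0.01 for all probe sets. Act88F, an actin of the flight muscle, had a mean log2 signal of 3.60 in UAS-3L G1, 11.7 in Tub-3L G5 and 8.94 in Tub-3L G5P, and was 6.88-fold lower in G5P than in G5 (adjusted p = 3.23e-06), while Vm26Aa, a protein of the egg's vitelline membrane made by follicle cells, had means of 10.68 and 10.73 in G5 and G5P. The part of other tissues or of the stage of the larvae in the level of Lcp65Ag2 was not tested.

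**Figure D3:**
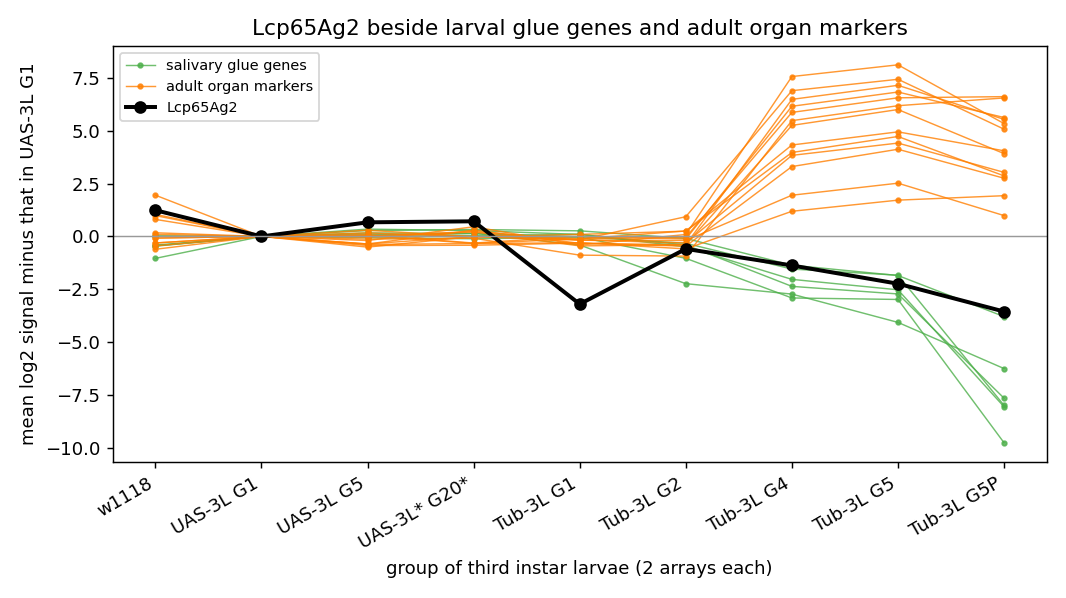
Mean log2 signal minus that in UAS-3L G1 (2 arrays per group) of Lcp65Ag2 (black), 6 salivary glue genes (green) and 13 markers of adult organs (orange) in the 9 groups. In Tub-3L G1 Lcp65Ag2 lies at −3.20 while the glue genes stay near 0, and the adult markers rise from Tub-3L G4 on.

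Other genes that build the cuticle or time its renewal are few on the array by name. Of the 7 listed genes of the pupal and adult cuticle, Acp1, an adult cuticle protein, is named, and it took another course than Lcp65Ag2. Its mean log2 signal was 3.91 in UAS-3L G1, 4.15 in Tub-3L G1 and 6.14 in Tub-3L G5, 4.69-fold higher (adjusted p = 1.41e-07), and 4.67 in Tub-3L G5P, which was not called. Acp1 and Lcp65Ag2 were both called higher in w1118 than in UAS-3L G1, Acp1 by 1.03 on the log2 scale. Against UAS-3L* G20* neither was called (Acp1 0.99, Lcp65Ag2 0.52). Acp1 stood at 5.17 on the array of w1118 with the higher signal of adult organs and at 4.69 on the other. Of 18 genes of chitin synthesis and matrix, Chs2, a chitin synthase of the gut lining, is named and was not called in any of the 8 comparisons with UAS-3L G1. Of 18 genes of tanning and hardening, Ddc, the dopa decarboxylase that makes the dopamine for tanning, and ETH, the hormone that triggers the moulting behaviour, are named. Ddc had a mean of 8.14 in Tub-3L G1 against 8.31 in UAS-3L G1, and was 3.43-fold lower in Tub-3L G5 and 5.10-fold lower in Tub-3L G5P (adjusted p = 2.24e-05 and adjusted p = 1.35e-06).

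Of 27 genes of ecdysone synthesis and response, 5 are named (EcR, Hr3, Hr38, Hr39 and ftz-f1), and 0 of them were called in Tub-3L G1 by limma, with 2 at an unadjusted p under 0.05. EcR, the ecdysone receptor, was 2.76-fold lower than UAS-3L G1 in Tub-3L G5 and 2.34-fold lower in Tub-3L G5P. Hr3, a nuclear receptor induced by ecdysone, was 2.88-fold and 3.35-fold lower. Hr38, another nuclear receptor, was 5.19-fold and 3.29-fold higher, and ftz-f1, which acts when the hormone has declined, was 3.24-fold and 5.07-fold higher. The largest adjusted p among these 8 values was 9.15e-06. Lcp65Ag2 was called in Tub-3L G1, where 2.94% of all probe sets were called in either direction. There 0 of the 5 hormone genes and 0 of the 2 tanning genes were called (0 tanning genes with an unadjusted p under 0.05). At this share, 0 calls among so few genes say nothing particular about them. In Tub-3L G5 Lcp65Ag2 was called beside 4 of the 5 and both of the 2. That comparison called 10.2% of all probe sets lower and 13% higher. ETH was 2.07-fold lower in Tub-3L G5, and neither against UAS-3L G5 (−0.85) nor in Tub-3L G5P was it called. Against UAS-3L G5 the call of EcR in Tub-3L G5P was lost too (−0.89), and the log2 difference of Hr38 there was 2.5. Hormone genes also differed in w1118, where Lcp65Ag2 was highest. There Hr38 was called 2.70-fold higher than in UAS-3L G1, where 2.36% of all probe sets were called higher. Hr3 (−0.99), EcR (−0.74) and Hr39 (−0.61) were lower without a call, and ftz-f1 had means of 7.26 in w1118 and 7.31 in UAS-3L G1.

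Genes with a profile like that of Lcp65Ag2 were sought among 2248 other named genes, by a rule set after the values were seen: Pearson's r over the 9 group means, for the 1265 whose means span at least 2-fold. The closest were Tret1-2, a transporter related to the trehalose transporter (r = 0.931), CG43165 (0.922), Asph, an aspartyl beta-hydroxylase (0.913), GluRIIA, a glutamate receptor subunit of the neuromuscular junction (0.910), NaPi-T, a phosphate transporter (0.908), and Obp56a, an odorant-binding protein (0.889). The groups share their arrays across all genes, so these r values describe the profiles and no more. Over all probe sets, 45 others reached an r of 0.9. None of the 6 spanned as wide a range as Lcp65Ag2, with group means 1.68 to 2.53 apart against 4.80.

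Tret1-2 had the most negative difference of the 6 in the first generation. Its mean log2 signal was 4.50 ± 0.515 in Tub-3L G1 (SD, n = 2 arrays) against 6.25 ± 0.151 in UAS-3L G1, 3.37-fold lower (adjusted p = 0.00146), and 4.64 in Tub-3L G5P, 3.07-fold lower. Obp56a had means of 7.78 in Tub-3L G1 and 7.63 in Tub-3L G2, where Lcp65Ag2 rose 6.13-fold. By the same r the most opposite profiles were those of DptB, an antibacterial peptide (−0.930), and agt, an enzyme that repairs alkylated DNA (−0.913). The order among these 6 and the 6 most opposite genes depends on the measure. Without Tub-3L G1, Tret1-2 had the lowest r of the 6 alike genes (0.912), and Slbp (−0.987) was more opposite than DptB (−0.925) and agt (−0.899). By Spearman's rho CG43165 (0.983) and Ssdp (−0.967) led. DptB had a mean of 7.98 in UAS-3L G1, 9.58 in Tub-3L G1 and 10.4 in Tub-3L G5P, which was 3.03-fold and 5.47-fold higher (adjusted p = 9.96e-07 and adjusted p = 8.94e-10), and 1.23% of all probe sets were called higher in Tub-3L G1. Since DptB and Tret1-2 were picked by r over these same group means, their folds and limma p-values follow in part from the choice and are no separate evidence.

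**Figure D4:**
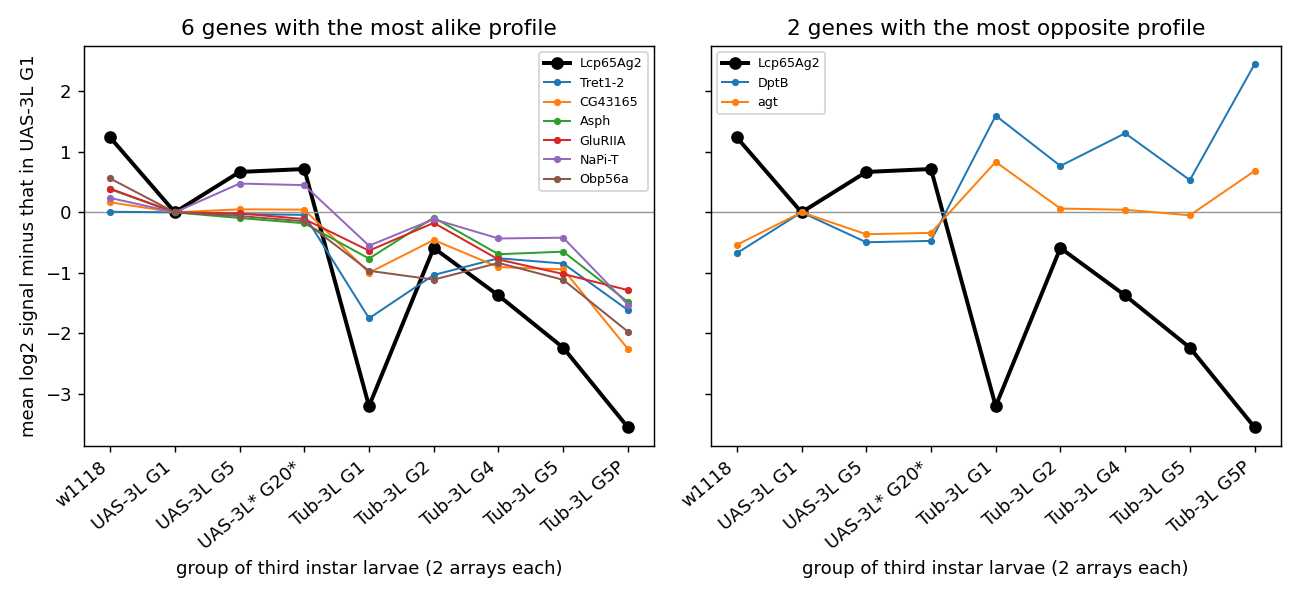
Mean log2 signal minus that in UAS-3L G1 (2 arrays per group) of Lcp65Ag2 (black) beside the 6 named genes with the most alike profile over the 9 groups (left) and the 2 with the most opposite one (right). Lcp65Ag2 spans 4.80, more than each of the others, and DptB lies highest in Tub-3L G1 and G5P, where Lcp65Ag2 lies lowest.

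A low level in the first generation followed by a rise in the second was uncommon among all probe sets. It was not uncommon among the 280 probe sets called lower in Tub-3L G1 against UAS-3L G1. Of all probe sets, 109 (0.668%) were called lower in Tub-3L G1 against UAS-3L G1 and higher in Tub-3L G2 against Tub-3L G1, comparisons that share the arrays of Tub-3L G1. Of these, 16 are named, Lcp65Ag2 among them. CG11350 had the most negative difference of these 16 in Tub-3L G1, with means of 8.99 in UAS-3L G1, 5.14 in Tub-3L G1, 9.36 in Tub-3L G2 and 5.32 in Tub-3L G5P. It was 14.4-fold lower in Tub-3L G1 and 12.7-fold lower in Tub-3L G5P than in UAS-3L G1, but its mean was 6.79 in UAS-3L G5, and against that control the log2 differences were −1.65 and −1.47. Both were also the lowest groups of Lcp65Ag2, but in Tub-3L G4 the mean of CG11350 was 9.47. Prm (paramyosin) and Tm2 (tropomyosin), proteins of muscle filaments, were 2.96-fold and 2.38-fold lower in Tub-3L G1 and 3.74-fold and 3.52-fold lower in Tub-3L G5P. With UAS-3L G5 as the control neither was called in Tub-3L G1 (Prm −0.92, Tm2 −0.81), and in Tub-3L G5P Prm was at −1.26. A low level in Tub-3L G5P was not shared by all of the 16. Glyp, GstE3, Neurochondrin and Actn had lower means there than in UAS-3L G1. LUBEL, RyR, Pgi, GstE7, GstE8, Hsp26, Hsp70Aa and Hsp70Ab had higher means. Hsp70Ab, at −3.20 in Tub-3L G1 against UAS-3L G1, had means of 12.5 in UAS-3L G1 and 12.6 in Tub-3L G5P. Of the 109, 5 had all arrays with the driver below all without it, and Lcp65Ag2 was the 1 named gene among them.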

How the data were processed

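The authors summarised Affymetrix Drosophila Gene 1.1 ST arrays with RMA at the level of core genes in Affymetrix Expression Console 1.3, and the deposited values are log2 signals. RMA levels out differences in scale between arrays and compresses dim signals. The number of arrays limits the precision. Sources used here do not give the genome build behind the annotation. A second deposited table of group averages (9 columns) was not used, since its column names could not be tied to groups. All 18 arrays and 16322 probe sets were used as deposited.

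One model with a mean per group was fitted with limma 3.58.1 in R 4.3.3 (9 residual and 2.71 prior degrees of freedom), two-sided, with Benjamini-Hochberg adjustment over all probe sets. The paper's methods take 2-fold and a p of at most 0.05 from a one-way analysis of variance, run here as the methods' t-test. The fit was tested on simulated data. Symbols were brought up to date through the Entrez number, and all 2392 probe sets with a symbol matched RefSeq. Values were to be given on every array for the cuticle members, and up to 4 called members of each other list were to be named by lowest p. Chs2, Hr39 and the genes of alike, opposite or G1-low profile were named after their values were seen, as were 7 added comparisons. The members and lists were chosen with earlier results of these data known. Alternatives were median centring, a dim-probe filter, other controls, tests and thresholds, a replicate block and leaving out each array.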

Additional observations from a re-analysis of the deposited data

How the results depend on the processing

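The 8 differences of Lcp65Ag2 that were called kept their call and direction with arrays centred on their median, without the dimmest 25% of probe sets, in a fit of the 2 groups alone, and without each array in turn. With the replicate number as a block each call stood too, and Tub-3L G1 against UAS-3L G1 remained at −3.20 with the replicate block. The labels do not say that replicate numbers pair the arrays, and over 36 pairs of groups the deviations of same-numbered arrays correlated between −0.0643 and 0.0394. With the methods' t-test every such call stood. After Benjamini-Hochberg adjustment the calls of Tub-3L G1 (−3.20), Tub-3L G5 (−2.24) and w1118 (1.24) against UAS-3L G1, of Tub-3L G2 against Tub-3L G1 (2.61) and of Tub-3L G5P against Tub-3L G5 (−1.32) were lost. With UAS-3L G5 as the control the call of w1118 was lost (0.57) and that of Tub-3L G2 was gained (−1.26). With no fold threshold the differences against UAS-3L G1 of Tub-3L G2 (−0.59), UAS-3L G5 (0.67) and UAS-3L* G20* (0.72) passed, as did Tub-3L G4 against G2 (−0.79), Tub-3L G5 against G4 (−0.86), Tub-3L G5 against Tub-3L G1 (0.97) and w1118 against UAS-3L* G20* (0.52). Leaving out 1 array at a time moved the difference between Tub-3L and UAS-3L in G5, minus that in G1, between 0.0401 and 0.56. Tub-3L G5 against Tub-3L G1 moved between 0.71 and 1.22 (past 2-fold without Tub-3L G5 replicate 2, and at 1.03 without Tub-3L G1 replicate 2). Tub-3L G5 against Tub-3L G4 moved between −1.12 and −0.61 (−1.12 without Tub-3L G5 replicate 1, past 2-fold). UAS-3L* G20* against UAS-3L G5 ran from −0.011 to 0.11, with the sign turned without UAS-3L* G20* replicate 2. Of 477 values of other named genes under the alternatives, 462 kept their call. The cause of the lost calls was not tested. Dim signal limits the folds of Tub-3L G1 and Tub-3L G5P.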
